A study of Mus musculus with 4 samples.

Results

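SR proteins, hnRNP proteins and proteins of the Rbm series are the 3 families of RNA-binding splicing regulators described here, through the RNAs that encode them in Fto knockout and wild-type mouse liver. Members were taken by name: protein-coding rows whose gene symbol starts with Srsf, Tra2, Hnrnp, Hnrp or Rbm followed by a digit, with Rbm15 and Rbm15b left out. Both tables use older symbols for the SR genes (Sfrs2 for Srsf2, for example), so the rule was applied to the symbol in the table and to the current symbol. This gave 62 of 7569 transcript features in the immunoprecipitate table, from 36 genes, and 62 of 12883 genes in the input table. Of 65 genes in all (12 SR, 20 hnRNP, 33 Rbm), 33 were in both tables, 3 in the immunoprecipitate table only and 29 in the input table only. With the symbols of the tables alone the rule finds 50 features and 48 genes, and Tra2a is then the SR family's single member.

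The 4 samples are Fto knockout liver and wild-type liver, each as an antibody immunoprecipitate (6mA-IP) and as the matching input, all on a C57/Bl6 background from tissue labelled liver biopsy. Each label states 3 replicates and gives neither the sex nor the age of the mice, nor whether replicates came from different animals, so the spread behind each p-value may be technical. The libraries were made by miCLIP, in which an antibody against methylated adenosine is crosslinked to RNA and the bound fragments are cloned by the iCLIP procedure. Levels, log2 fold changes, standard errors (SE) and p-values are the authors' own, from comparison tables made with DESeq2, and values per library were not analysed here, so the depth of each library is unknown. A level is the authors' mean of scaled read counts over the libraries, not corrected for transcript length, and the tables were scaled separately. All 8 hepatocyte markers checked were present in the input, with means from 294 to 84262 in the authors' deposited table. Fto itself had a log2 fold change of −1.49 in the authors' deposited input table (SE 0.27, adjusted p = 3.52e-04 by DESeq2), from which the input is read as knockout over wild type. The immunoprecipitate is read in the same direction, which its header does not state; read the other way, every sign there would turn.

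SR proteins carry RNA recognition motifs and a tail rich in arginine and serine, bind exonic enhancers and help the snRNPs to define exons. hnRNP proteins coat nascent transcripts and often act against SR proteins at nearby sites, and some of them, such as hnRNPC and hnRNPA2B1, have been described as binding near or to N6-methyladenosine. The Rbm genes are a naming series for proteins with an RNA-binding motif rather than a family of common descent, and range from core splicing cofactors to nuclear export, RNA editing and RNA decay. FTO removes methyl groups from N6-methyladenosine and from the cap-adjacent form m6Am, which forms where a transcript begins with adenosine. The antibody binds both forms.

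Since m6Am needs an adenosine as the first base, the annotated start sites of members that were called lower in the immunoprecipitate are shown first, followed by the most abundant uncalled member of each family with a matched window; Rbm12b2, also called, had no match. Each line gives 15 bases before the RefSeq start and 15 from it, read 5′ to 3′ in the direction of transcription on GRCm38.p6, with the start base in capitals.
Rbm14, chr19:4811620-4811649, minus strand: caattggttaggttaGagcgcctgcgcggc
Srsf2, chr11:116853080-116853109, minus strand: ggggcccgcccgctcGcttagttgctgctc
Hnrnph2, chrX:134601164-134601193, plus strand: agtgatcccgagtttAagccgagagttgct
Tra2a, chr6:49264038-49264067, minus strand: ccggggacaccaggaGgtttctggcggcac
Hnrnpa2b1, chr6:51469880-51469909, minus strand: cgtaagcggagacgcGttagtggggggaag
Hnrnpa2b1, second start, chr6:51469831-51469860, minus strand: ctcggctccagcggcAgtagcagcggcgcc
Rbm33, chr5:28317174-28317203, plus strand: cgcggccatgttgccGtagtgttgttttct
Among the called genes shown, only Hnrnph2 has A at its matched start, and Rbm14 and Srsf2 have G there. The annotated span of Srsf2 reaches to position 116853675, upstream of the start shown, so another start of this gene is not covered. The spans of Tra2a, Hnrnpa2b1 and Rbm33 also reach upstream of the starts shown. RefSeq start windows were matched for 54 of 65 member genes, with 70 windows in all. A was the start base in 18 of them (25.7%), against 34.4% of all 32851 windows, and G in 37 (52.9%), against 35.6% of all windows. By family, A stood first in 20% of 15 SR windows, 29.6% of 27 hnRNP windows and 25% of 28 Rbm windows. The 5 letters GGACT, a common context of N6-methyladenosine, were searched on the transcribed strand in the first 50 bases from the start. They were found in 6 of the 70 member windows (8.57%), against 5.76% of all windows, with 0 of 15 SR, 2 of 27 hnRNP and 4 of 28 Rbm windows. Windows of 1 gene can overlap, an annotated start need not be the one used in liver, and a match is a description of letters only.

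The immunoprecipitate comparison asks how much of each of these RNAs the antibody held in the knockout. Of the 62 member features, 6 fell and 0 rose by the authors' deposited table (called at an adjusted p under 0.05), against 1.45% of all features called and 1.18% called lower. Of all 6715 protein-coding features, 67 were called lower and 0 higher, so the lack of rises is not particular to the members. Fell and rose, like lower and higher, give the sign of the printed fold change. The 6 called features come from 4 genes of all 3 families: Srsf2, Hnrnph2, Rbm14 and Rbm12b2. An adjusted p is given for 18 of the 62 features, of which these are 6, against 3.79% called lower of all features with an adjusted p and 3.56% of such protein-coding features. An unadjusted p under 0.05 was reached by 9 features of 6 genes, all lower, against 8.52% of all features with a p that were lower at that level. Transcripts of 1 gene share reads, so counts of features overstate the number of separate results, and no p of any kind is given for 8 of the 62. Red cell markers also had negative values: Alas2, of heme synthesis, stood at −8.78 (SE 2.71, adjusted p = 0.187) in the immunoprecipitate and −0.99 (SE 0.29, adjusted p = 0.443) in the input, per the authors' deposited tables. The globin gene Hba-a1 stood at −23.04 (SE 3.44, adjusted p = 0.204) in the immunoprecipitate and −0.48 (SE 0.30) in the input, per the authors' deposited tables. Of the 3 red cell markers looked for, these are the 2 analysed here. Neither passed, nor did any marker of the other liver and blood cell types checked, and their part in the members' values was not tested.

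**Figure D1:**
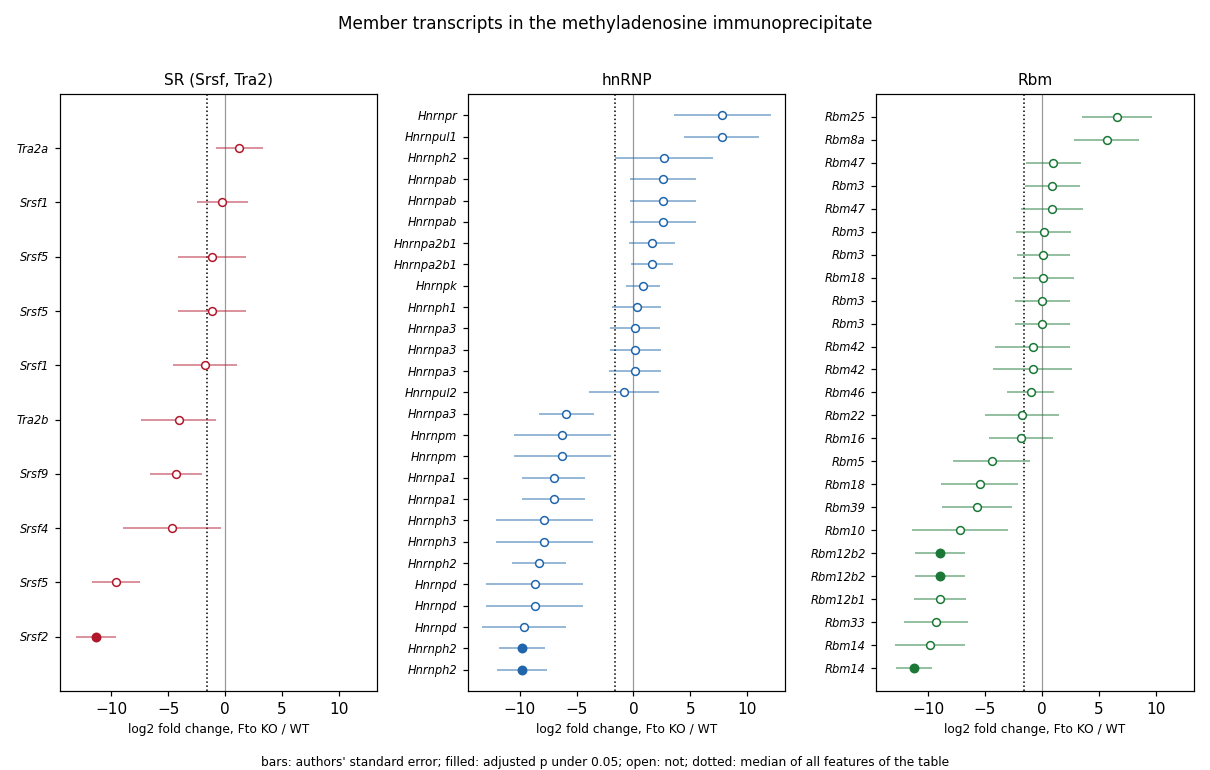
Log2 fold change (horizontal axis, Fto knockout over wild type) of every member transcript in the immunoprecipitate, 1 panel per family and 1 row per transcript, with the authors' standard error as bars. The 6 filled points (adjusted p under 0.05) all lie below 0, and 1 of 10 SR transcripts, that of Tra2a, lies above 0.

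In the SR family, Srsf2, an enhancer-binding factor concentrated in nuclear speckles, was the 1 feature that fell. It had a mean of 21.3 and a log2 fold change of −11.37 in the authors' deposited table (SE 1.76, adjusted p = 0.00149 by DESeq2). The gene overlaps Mfsd11 in the RefSeq annotation, and without a stated use of strand in the counting their reads may not be separable. Srsf5 gave unlike values by transcript: 1 transcript stood at −9.58 with a mean of 9.91 (SE 2.13, adjusted p = 0.0566), just short of the threshold, per the authors' deposited table. The other 2 Srsf5 transcripts carried identical values, a mean of 8.04 and a fold change of −1.19 (SE 2.98), in the authors' deposited table. Transcripts of this gene thus differed by more than their standard errors within the same libraries, and that difference was not tested.

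Srsf1, the founding SR protein, had a main transcript at a mean of 20.9 and a log2 fold change of −0.26 (SE 2.24), with a second at −1.75 (SE 2.80), in the authors' deposited table. The level of its main transcript was close to that of Srsf2, and its fold change lay within its error of 0. Tra2a, an SR-like enhancer-binding protein, had the highest mean of all members, 29.7, and the family's single value above 0, 1.24 (SE 2.06), with no p in the authors' deposited table. Its relative Tra2b stood at −4.08 (SE 3.31), Srsf9 at −4.33 (SE 2.29) and Srsf4 at −4.66 (SE 4.28), with means of 3.88, 5.65 and 0.868 in the authors' deposited table. None of these passed. Srsf3, Srsf6, Srsf7, Srsf10 and Srsf11 were not analysed here in the immunoprecipitate.

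In the hnRNP family, Hnrnph2, which binds runs of G and is a close paralog of Hnrnph1, was the 1 gene with calls. Of its 4 transcripts, 2 fell, each with a log2 fold change of −9.81, at means of 7.74 (SE 1.99, adjusted p = 0.0140) and 7.60 (SE 2.19, adjusted p = 0.0308) per the authors' deposited table. The third stood at −8.30 (SE 2.41, unadjusted p = 0.0221, no adjusted p) and the last at 2.67 with a mean of 1.25 (SE 4.29), also in the authors' deposited table. Hnrnph1 had a mean of 11.2 and stood at 0.30 (SE 2.15, adjusted p = 1) per the authors' deposited table. The paralogs thus stood apart in fold change, though the counting may have divided reads among such similar sequences, and their difference was not tested.

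The most abundant hnRNP RNA in the immunoprecipitate was Hnrnpa2b1, with transcripts at means of 27.9 and 26.5 and fold changes of 1.62 (SE 1.85, adjusted p = 0.926) and 1.63 (SE 2.03, adjusted p = 0.825) per the authors' deposited table. Hnrnpk, a poly-C binding protein, had a mean of 15.6 and a fold change of 0.84 with the smallest standard error of all members, 1.48, in the authors' deposited table (adjusted p = 1). These abundant hnRNP transcripts lay on the positive side and within their errors of 0. Below a mean of 10 the family spread widely, between −9.81 and 7.81. Hnrnpd, which binds AU-rich elements, had 3 transcripts between −9.58 and −8.69 with standard errors from 3.69 to 4.25 in the authors' deposited table. Hnrnpr stood at 7.81 (SE 4.25) and Hnrnpul1 at 7.75 (SE 3.30, unadjusted p = 0.0841) per the authors' deposited table. Hnrnpa3 was split by transcript, with 1 at −5.90 (SE 2.43, adjusted p = 0.237) and 3 at 0.14, in the authors' deposited table. That value of 0.14 (0.143) is shared by 271 features of the table, and −0.82 (−0.819) by 842, so such values do not tell features apart, and 8 member features sit at one or the other. The remaining hnRNP transcripts had no call: 2 identical ones of Hnrnpa1 stood at −7.02 (SE 2.74, unadjusted p = 0.0658), those of Hnrnph3 at −7.82 and Hnrnpm at −6.25, Hnrnpul2 at −0.82 and 3 identical ones of Hnrnpab at 2.59, per the authors' deposited table.

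In the Rbm series, Rbm14, a transcriptional coactivator that is also a paraspeckle protein, had the lowest adjusted p of all members. Its main transcript had a mean of 17.3 and a log2 fold change of −11.21 in the authors' deposited table (SE 1.59, adjusted p = 5.27e-05 by DESeq2). A second Rbm14 transcript stood at −9.84 with a mean of 8.10 (SE 3.08), with no p in the authors' deposited table. The span of Rbm14 overlaps the predicted gene Gm21992. Both transcripts of Rbm12b2 fell, each with a log2 fold change of −8.93, at means of 8.32 (SE 2.21, adjusted p = 0.0386) and 8.73 (SE 2.20, adjusted p = 0.0429) per the authors' deposited table. Its neighbour and paralog Rbm12b1 had nearly the same values, −8.93 with a mean of 8.57 (SE 2.26), and did not pass (adjusted p = 0.0583) per the authors' deposited table. Reads of these copies may be shared, so the calls of Rbm12b2 are uncertain, though the counts of called features and genes above include them. The span of Rbm12b2 also overlaps Tmem67.

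Other Rbm transcripts had no call. Rbm33 stood at −9.28 (SE 2.80, unadjusted p = 0.09998) and Rbm39, a cofactor related to the U2AF splicing factor, at −5.70 (SE 3.06) in the authors' deposited table. On the other side, Rbm25, which works with the U1 snRNP, stood at 6.58 (SE 3.07, unadjusted p = 0.131) and Rbm8a, a core protein of the exon junction complex, at 5.70 with a mean of 9.47 (SE 2.87, adjusted p = 0.479) per the authors' deposited table. The 5 transcripts of the cold-inducible gene Rbm3 lay between 0.03 and 0.93, and the pair from Rbm47, a cofactor of apolipoprotein B RNA editing, at 0.88 and 0.99, in the authors' deposited table. Rbm10 and Rbm5, related regulators of exon skipping, stood at −7.19 (SE 4.25) and −4.39 (SE 3.38), and Rbm18 at −5.48 and 0.14 by transcript, per the authors' deposited table. The last, Rbm16, Rbm22, Rbm46 and Rbm42, lay between −1.84 and −0.82 there. Values of this series thus lie on both sides of 0 with standard errors of 1.59 to 4.25.

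**Figure D2:**
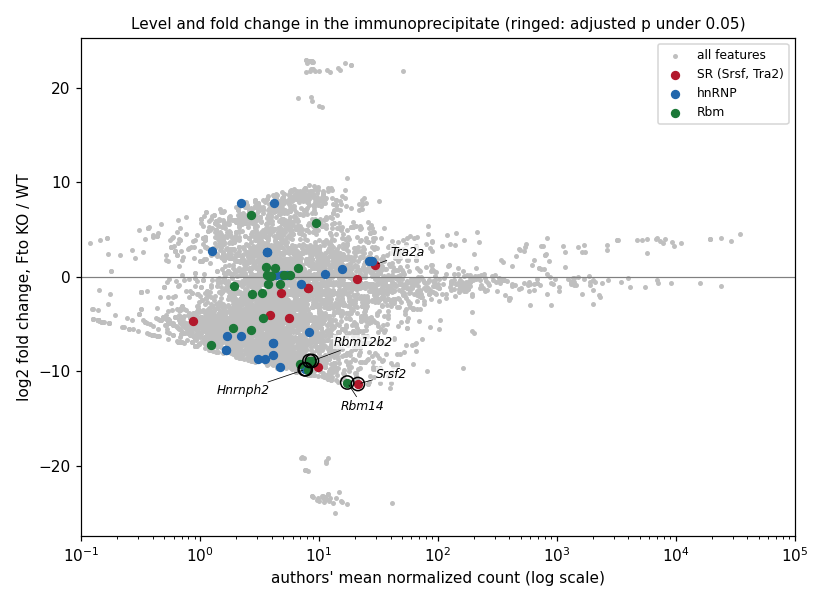
Authors' mean normalized count (horizontal axis, log scale) against log2 fold change (vertical axis, Fto knockout over wild type) for all 7569 immunoprecipitate features in grey, with members coloured by family and called members ringed. Members sit at means from 0.868 to 29.7. The called ones lie between −11.37 and −8.93 at means from 7.60 to 21.3, and the lowest of all features lies at −25.05.

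Called members had means from 7.60 to 21.3. At such levels a fitted fold change near −9 or −11 rests on very few reads in the lower group. Means per genotype were not analysed here, so the size of these folds is not ranked or read as a ratio. The authors' p here follows a chi-square statistic, and the term it tests is not stated. It is no direct test of the printed fold change over its standard error, so a fold and its p are read separately. A feature said to have fallen thus joins a p of unstated term to the sign of its fold change.

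Set side by side, the SR family had the lowest median in the immunoprecipitate, −2.92 over 10 features, then Rbm with −0.97 over 25 and hnRNP with −0.82 over 27, against −1.59 over all features. The members together had a median of −1.47. The hnRNP median is the value shared by 842 features. By each gene's most abundant transcript, over the 33 member genes in both tables, the medians were −4.33 for SR, −3.12 for Rbm and −0.26 for hnRNP. The distance of Rbm from the other families thus depends on how transcripts are counted, and no such median over all genes is given. Of all members 24 lay above 0, against 29.5% of all features: 1 SR, 13 hnRNP and 10 Rbm features. No test of the families against each other was made, so these medians are given as a description. At a mean of at least 10 only 8 member features remain, with a median of 0.57 against −0.82 for all features at that level.

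The input comparison asks whether the levels of these RNAs differed. Of 62 member genes 0 were called in the authors' deposited table, against 0.0388% of all genes, and 1 had an unadjusted p under 0.05, against 2.21% of all genes with a p. The gene with that p was Srsf7, an SR protein with a zinc knuckle that also serves as an adaptor of mRNA export. It had a mean of 44.9 and a log2 fold change of 0.67 in the authors' deposited table (SE 0.28, unadjusted p = 0.0166, adjusted p = 0.9998 by DESeq2). Fold changes in this table have the small sizes of shrunken estimates, and standard errors of members ran from 0.22 to 0.30.

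**Figure D3:**
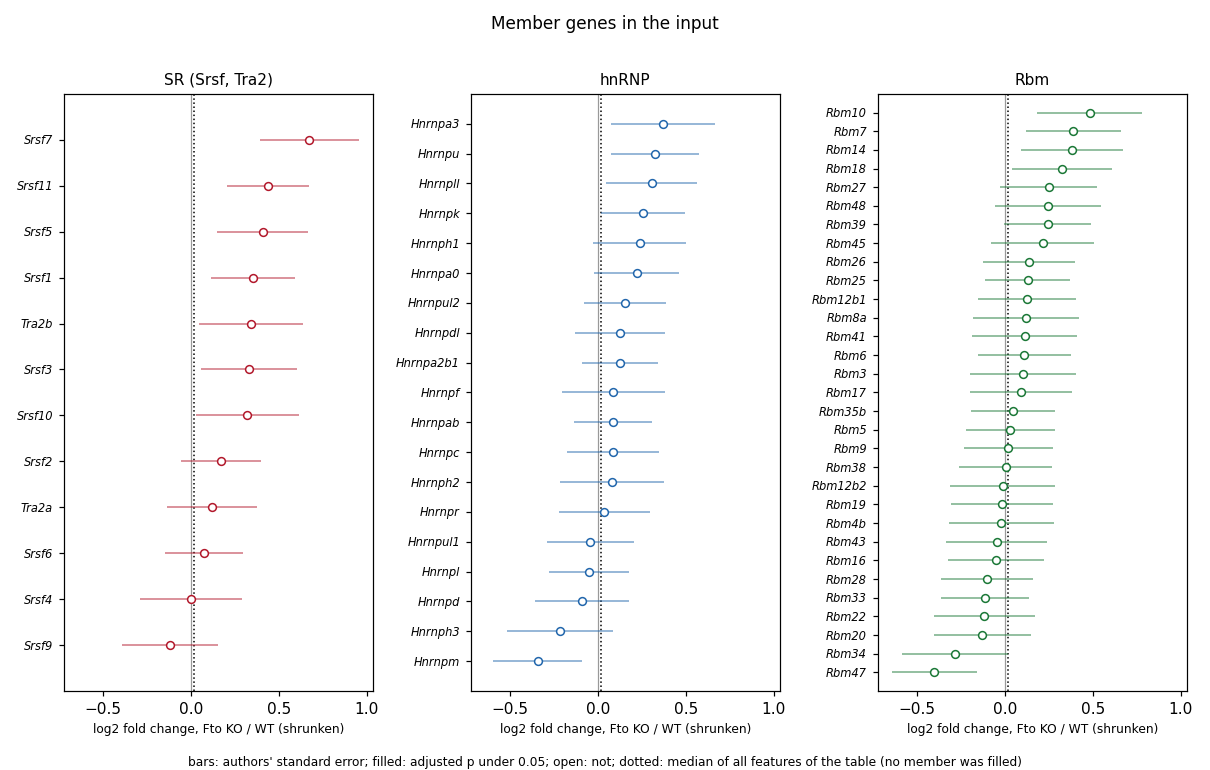
Log2 fold change (horizontal axis, Fto knockout over wild type, shrunken) of every member gene in the input, 1 panel per family, with the authors' standard error as bars. No point is filled, since no member passed; 11 of 12 SR genes lie above 0, with Srsf7 farthest at 0.67.

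SR genes had mostly positive fold changes in the input, with 0 calls. Of the 12, 11 had fold changes above 0, and the family median was 0.33, against 0.09 for hnRNP (14 of 19 above 0), 0.09 for Rbm (20 of 31) and 0.02 for all genes (53.5% above 0). After Srsf7 came Srsf11 at 0.44 (SE 0.23, unadjusted p = 0.0606), Srsf5 at 0.41 (SE 0.26) and Srsf1 at 0.35 (SE 0.24) in the authors' deposited table. Tra2b stood at 0.34 (SE 0.29), Srsf3, which binds pyrimidine-rich sites and aids export, at 0.33 (SE 0.27), and Srsf10, a repressor when dephosphorylated, at 0.32 (SE 0.29) in the authors' deposited table. The other SR genes lay closer to 0, with Srsf2 at 0.17 (SE 0.23), Tra2a at 0.12, Srsf6 at 0.08, Srsf4 at 0.00018 and Srsf9 at −0.12 (SE 0.27) in the authors' deposited table. Genes of 1 family measured in the same libraries are not replicates of each other, so the count of signs has no test.

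The level of SR members in the input ran from 21.9 for Srsf10 to 223 for Srsf2, with Srsf6 at 198 and Srsf1 at 150, in the authors' deposited table. hnRNP members ran from 8.35 for Hnrnpa3 to 203 for Hnrnpa2b1, with Hnrnpab at 182 and Hnrnpl at 170, in the authors' deposited table. Rbm members ran from 4.16 for Rbm20, a titin splicing factor of heart muscle, to 166 for Rbm47, with Rbm39 at 130 and Rbm25 at 124, per the authors' deposited table. The median level was 49.5 for SR, 69.2 for hnRNP and 27.9 for Rbm genes, against 26.1 for all genes. These levels are not per length, so genes are placed by reads and not by molecules.

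Among hnRNP genes in the input, the highest fold changes at a mean of at least 10 were those of Hnrnpu, a scaffold of nuclear chromatin and RNA, at 0.33 (SE 0.25), Hnrnpll, a regulator of Ptprc splicing in lymphocytes, at 0.31 (SE 0.26) and Hnrnpk at 0.26 (SE 0.24), in the authors' deposited table. The lowest were Hnrnpm at −0.34 (SE 0.25), Hnrnph3 at −0.22 (SE 0.30) and Hnrnpd at −0.09 (SE 0.27) in the authors' deposited table. Hnrnpc, the U-tract binder mentioned above, was at 0.09 (SE 0.26), and Hnrnpa2b1 at 0.13 (SE 0.22), in the authors' deposited table. None of these differs from 0 by more than 1.5 standard errors.

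Among Rbm genes in the input with a mean of at least 10, the highest were Rbm10, a regulator of exon skipping, at 0.48 (SE 0.30), Rbm7, a part of the nuclear exosome targeting complex, at 0.39 (SE 0.27) and Rbm14 at 0.38 (SE 0.29), in the authors' deposited table. Rbm47 was lowest at −0.40 (SE 0.24, unadjusted p = 0.0968), before Rbm34 at −0.29 (SE 0.30) and Rbm22, a spliceosome component, at −0.12 (SE 0.29), in the authors' deposited table. The table names 3 genes by former Rbm symbols whose current ones lie outside the series: Rbm9 (Rbfox2) at 0.02, Rbm16 (Scaf8) at −0.05 and Rbm35b (Esrp2, an epithelial splicing regulator active in liver) at 0.04, all from the authors' deposited table. Each lay within 1 standard error of 0.

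**Figure D4:**
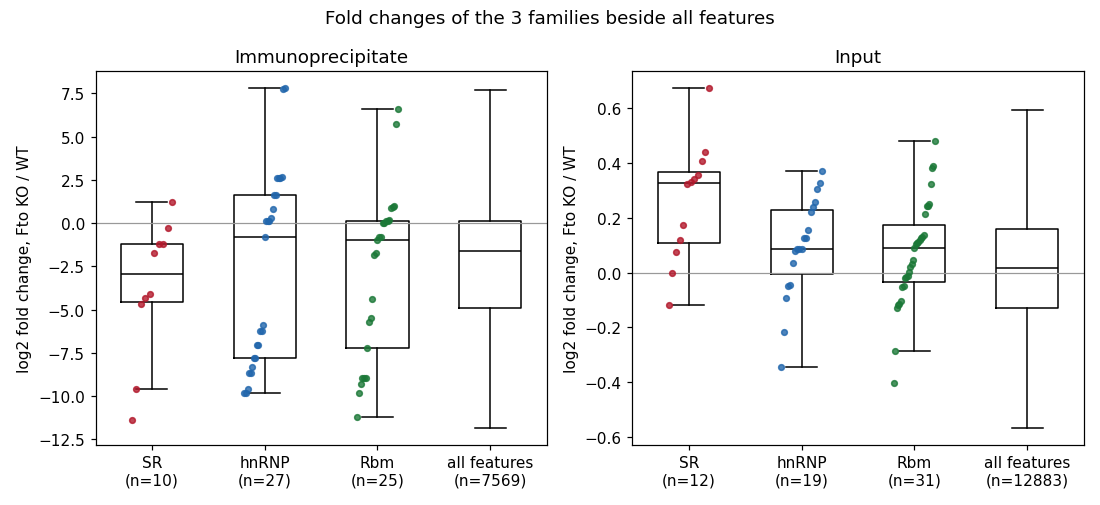
Log2 fold changes (vertical axes, Fto knockout over wild type) of SR, hnRNP and Rbm members beside all features, for the immunoprecipitate on the left and the input on the right; each dot is a member, boxes give median and quartiles, and whiskers reach the farthest value within 1.5 times the box. The SR median is lowest of the 3 families in the immunoprecipitate (−2.92) and highest in the input (0.33).

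Input values of the genes with a call in the immunoprecipitate are set beside those calls here. Srsf2 stood at 0.17 (SE 0.23) in the input, Rbm14 at 0.38 (SE 0.29), Hnrnph2 at 0.08 (SE 0.30) and Rbm12b2 at −0.01 (SE 0.30), in the authors' deposited table. None passed there. Input values are per gene and shrunken while the calls are per transcript, and the part of RNA level in the calls was not tested. The 95% interval of the input fold change reached down to −0.27 for Srsf2, −0.19 for Rbm14, −0.50 for Hnrnph2 and −0.60 for Rbm12b2, on the shrunken scale.

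The fold change in the immunoprecipitate was set against that in the input gene by gene, with each gene's most abundant transcript, over the 783 genes that reached a mean of 10 in each. Of these genes 206 passed (26.3%, with 20.4% lower), and 2 of the 7 members among them did: Srsf2, with a difference of −11.54 (SE 1.77, adjusted p = 2.99e-09), and Rbm14, with −11.59 (SE 1.62, adjusted p = 5.30e-11), by a two-sided normal test with Benjamini-Hochberg adjustment. The share among members is close to that of all genes, so it is not a result about the members. Their differences largely restate the immunoprecipitate folds, and a gene can reach the minimum mean through 1 genotype alone, so they add no support to the calls. The other 5 did not pass: Hnrnpa2b1 at 1.49 (SE 1.87), Tra2a at 1.12 (SE 2.08), Hnrnpk at 0.59 (SE 1.496), Hnrnph1 at 0.07 (SE 2.17) and Srsf1 at −0.61 (SE 2.248). Their intervals are wide, so these values do not show that bound RNA and RNA level moved alike. The test treats the errors of both tables as independent and rests on the printed standard errors of the immunoprecipitate.

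**Figure D5:**
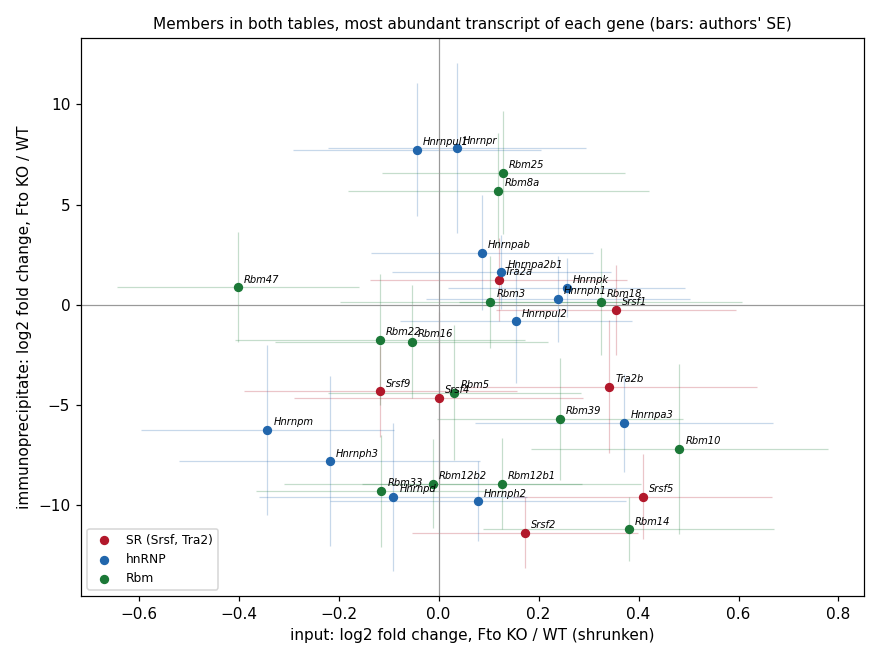
Log2 fold change in the input (horizontal axis, shrunken) against that in the immunoprecipitate (vertical axis), both Fto knockout over wild type, for the 33 member genes in both tables; bars are the authors' standard errors. Srsf2, Rbm14, Hnrnph2 and Srsf5 sit at the bottom right, below −9 in the immunoprecipitate and above 0 in the input. Of the 33 genes, 13 lie below 0 in the immunoprecipitate and above 0 in the input, against 35.4% of all 3944 genes in both tables. That pair of signs is thus not particular to the members.

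Over the 33 member genes in both tables, the level in the immunoprecipitate over that in the input, on the log2 scale and relative to the median gene, was 0.46 for the median SR gene, 0.22 for hnRNP and −0.18 for Rbm. It was highest for Rbm12b1 (3.93), Rbm12b2 (3.41) and Hnrnpa3 (3.30) and lowest for Hnrnpab (−2.34) and Rbm39 (−2.28). The highest ratios belong to the members with the lowest input means (5.57, 8.10 and 8.35), at ranks 217, 332 and 354 of 3944 genes. The ratio sets the count of 1 transcript against that of a whole gene, so it is a description only.

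Other splicing genes were counted in the same way. The list held 60 genes: kinases of SR proteins such as Srpk1 and Clk1, their import receptors, SR-related proteins such as Srrm2 and Son, and other RNA-binding regulators. With the members of the families left out, it had 49 features of 29 genes in the immunoprecipitate, with a median of −2.28, 14 above 0, 1 called lower and 0 called higher. Over all features the median was −1.59, with 29.5% above 0 and 1.18% called lower, so these counts are not read as a result about the list. The feature that fell was Pspc1, a paraspeckle protein like Rbm14, at −9.54 with a mean of 18.8 (SE 2.04, adjusted p = 0.0344) per the authors' deposited table. Syncrip, an hnRNP-like protein, stood at −10.95 with a mean of 13.9 and did not pass (SE 2.43, adjusted p = 0.0752) per the authors' deposited table. In the input 55 genes of the list had a median of 0.06, with 37 above 0 and 0 called. All genes there had a median of 0.02, with 53.5% above 0 and 0.0388% called. Fubp1, which binds single-stranded nucleic acid, had the lowest p there, at 0.57 (SE 0.23, unadjusted p = 0.0122, adjusted p = 0.9998), per the authors' deposited table. Among the kinases, Clk4 stood at 0.35 (SE 0.25), Clk1 at 0.19 (SE 0.26) and Srpk2 at −0.25 (SE 0.28) in the authors' deposited table.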

How the data were processed

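RNA of Fto knockout and wild-type liver was measured as immunoprecipitate and input. The submitters' processing notes list STAR, bedtools 2.25.0, DESeq2 and build mm10 without saying what each did. Per the file headers, the authors deposited for each feature a mean signal of scaled counts, a log2 fold change with its SE, a test statistic (score), and a p-value with an adjusted p-value. How reads were counted, modelled and filtered is not given in these sources, and depth per library is unknown.

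Members and lists were chosen with earlier results of these data known. Of input identifiers 12869 of 12883 were matched to current symbols, and 6828 of 7569 immunoprecipitate features by name. Features were called at the authors' adjusted p under 0.05. Differences between tables were tested with scipy 1.17.1 in Python 3.11.15 over genes with a mean of at least 10 in both, after a check on simulated data. Named members were those called, those at such a mean in the immunoprecipitate, the most abundant, and those with the lowest p or the outermost fold changes in the input; others were added after their values were seen. Replicate values were not analysed here, so no model was refitted. Start windows are RefSeq sequences of GRCm38.p6. Alternatives concerned thresholds, adjustment, filters, centring and naming.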

Additional observations from a re-analysis of the deposited data

Results flagged for a closer look

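For 2 of 7 members, Srsf2 (−11.54) and Rbm14 (−11.59), the log2 fold change in the immunoprecipitate differed from that in the input by the test of the difference, which 26.3% of all 783 genes compared also passed. These values largely restate immunoprecipitate folds at means of 21.3 and 17.3, which a gene can reach through 1 genotype alone, so neither their size nor their p is read as a result about the members.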

How the results depend on the processing

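The 6 lower calls among 62 member features in the immunoprecipitate became 8 at an adjusted p under 0.1. With 1 feature per gene they became 4 of 36. Every call in these settings was lower. They became 3 when the deposited p-values were adjusted over the table itself (Srsf2, Rbm14 and 1 Hnrnph2 transcript kept their calls). From fold change over standard error they became 11 (against 10.8% of all features). When a mean of 10 was required, 2 of 8 member features were called lower, against 77 of 1682 among all features. There were 3 of 50 with the gene names of the tables, where Srsf2 and Rbm12b2 are not members. For an adjusted p under 0.1, 1 feature per gene and the adjustment over the table, no share over all features is given. The naming alternative and the one without repeated fold changes were chosen after seeing the data. The median of members in the immunoprecipitate, −1.47, changed sign to 0.57 at a mean of at least 10 and to 0.12 relative to the median of all features, so it carries no direction; other settings gave −4.21 to −0.82. Input counts stayed at 0 under each alternative and the input median lay between 0.09 and 0.12. The 2 members that differed between tables became 7 of 33 with no minimum mean, all lower (11% of all genes passed), and stayed 2 in the other settings run; with means of 50 or more required no member was left. The causes were not tested. No paired analysis was possible because the analysis used tables without values per replicate; for the same reason no replicate was left out. Low means (at most 29.7) limit every immunoprecipitate value.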
